A study of Mus musculus with 6 samples.

Results

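The genes described are 7 enzymes of sterol synthesis, Hmgcs1, Idi1, Fdps, Fdft1, Sqle, Lss and Cyp51, and the sterol sensor partner Insig1. They were taken as the probes of the array whose gene name in the scanner files is one of these symbols, which gave 18 probes for the 8 genes, out of 41174 probes and 19611 genes tested. Kidney RNA was measured on 6 single-colour arrays: wild-type mice gave 2 arrays after sham surgery and 2 after ischaemia/reperfusion injury of the kidney, and Gpr97-deficient mice gave 1 after each. Gpr97, an adhesion receptor of the G protein-coupled class, is now called Adgrg3. The series asked how loss of this receptor bears on acute kidney injury. All samples are labelled male; the sources used here give no strain, no age, no deleted part of the gene or cell type of the deletion, no length of ischaemia and no time after surgery. Whether replicate arrays are separate animals is not in the labels, so p-values measure the spread between these samples, which may be technical in part. The 8 genes were chosen by measured values, an earlier result on the same arrays in which cholesterol synthesis genes had lower signal after injury than after sham surgery in Gpr97-deficient kidney. Values of that comparison are therefore a description with no test, and so are both genotype comparisons, which share an array with it.

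Cholesterol is built in the endoplasmic reticulum and cytosol from acetyl-CoA, by way of mevalonate, isoprenoid diphosphates, squalene and lanosterol. The genes of this route are switched on together by the transcription factor SREBP2, which the escort protein SCAP carries to the Golgi when membrane sterol is low. Insig1 is a membrane protein that holds SCAP in the endoplasmic reticulum when sterol is plentiful, and Insig1 is itself a target of SREBP. Tubule cells of the kidney make cholesterol and also take it up from lipoproteins.

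The 5 probes that span an intron in the genome, and so read spliced RNA, are printed to show what was measured. Each is 60 bases long and is given 5′ to 3′ in lower case, as the scanner files list it. The Fdps and Fdft1 probes here are the ones used for their gene.
Idi1 probe A_52_P441634: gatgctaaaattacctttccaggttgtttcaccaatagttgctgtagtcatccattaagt
Fdps probe A_51_P379798: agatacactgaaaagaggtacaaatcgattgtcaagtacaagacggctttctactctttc
Fdft1 probe A_51_P485946: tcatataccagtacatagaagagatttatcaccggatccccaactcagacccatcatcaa
Cyp51 probe A_51_P485791: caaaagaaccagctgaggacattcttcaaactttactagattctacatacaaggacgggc
Insig1 probe A_52_P393392: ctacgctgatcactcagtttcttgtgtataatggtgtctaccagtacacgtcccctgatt
In mm9, the build of the scanner files, these probes span 8886802 to 8887206 on chromosome 13 (Idi1, plus strand), 88898812 to 88898952 on chromosome 3 (Fdps, minus strand), 63765769 to 63770009 on chromosome 14 (Fdft1, minus strand), 4092033 to 4092439 on chromosome 5 (Cyp51, minus strand) and 28401146 to 28401618 on chromosome 5 (Insig1, plus strand).

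Promoters are shown because the 8 genes are known targets of 1 transcription factor family. RefSeq sequences in GRCm38.p6, from 250 bases before to 50 after the start of transcription, were held for 5 of the 8 genes (Hmgcs1, Idi1, Lss, Cyp51 and Insig1). The sterol regulatory element was searched as its full 10-base form and as the core TCACNCCAC, the NF-Y box as CCAAT and the Sp1 box as GGGCGG, on both strands. The core lies inside the full element. Capitals mark the core TCACNCCAC and CCAAT, the latter also where it lies on the opposite strand and so reads as its reverse complement.
Hmgcs1 (chr13:119690101-119690400, plus strand): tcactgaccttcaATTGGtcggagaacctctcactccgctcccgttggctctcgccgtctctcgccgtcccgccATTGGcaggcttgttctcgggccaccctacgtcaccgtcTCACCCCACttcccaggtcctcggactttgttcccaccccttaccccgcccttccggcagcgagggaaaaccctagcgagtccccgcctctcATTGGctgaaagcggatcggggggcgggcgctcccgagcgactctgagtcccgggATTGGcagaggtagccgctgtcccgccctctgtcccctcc
Idi1 (chr13:8885356-8885655, plus strand): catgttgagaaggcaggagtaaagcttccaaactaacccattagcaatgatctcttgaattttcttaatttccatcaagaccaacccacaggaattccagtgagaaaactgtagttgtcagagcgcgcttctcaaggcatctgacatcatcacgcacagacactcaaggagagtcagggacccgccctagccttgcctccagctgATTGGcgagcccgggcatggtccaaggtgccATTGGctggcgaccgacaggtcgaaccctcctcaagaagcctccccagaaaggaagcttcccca
Cyp51 (chr5:4104648-4104947, minus strand): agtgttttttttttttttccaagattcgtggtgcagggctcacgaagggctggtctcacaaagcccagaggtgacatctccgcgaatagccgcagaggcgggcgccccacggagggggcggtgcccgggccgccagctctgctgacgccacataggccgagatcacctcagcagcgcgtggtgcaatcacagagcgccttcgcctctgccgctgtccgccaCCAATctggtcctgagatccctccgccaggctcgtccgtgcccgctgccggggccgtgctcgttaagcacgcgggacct
Insig1 (chr5:28071162-28071461, plus strand): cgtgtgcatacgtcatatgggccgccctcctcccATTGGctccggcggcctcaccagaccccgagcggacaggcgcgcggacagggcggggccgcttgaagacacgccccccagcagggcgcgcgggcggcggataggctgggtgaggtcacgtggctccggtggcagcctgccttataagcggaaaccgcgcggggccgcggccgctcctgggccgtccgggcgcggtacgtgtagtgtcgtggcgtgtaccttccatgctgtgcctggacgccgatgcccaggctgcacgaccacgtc
The core TCACNCCAC was found in 1 of the 5 windows, that of Hmgcs1, where it begins 137 bases before the start, and in 1.24% of all 32851 promoter windows of that length. The full element was found in 0 of the 5 and in 0.0913% of all windows. CCAAT was found in 5 of 5, against 37.4% of all windows, and GGGCGG in 5 of 5, against 35.7%. Among 12 promoters of other cholesterol synthesis enzymes the counts were 0 for the core, 11 for CCAAT and 11 for GGGCGG. The Hmgcs1 window holds 4 CCAAT boxes, that of Idi1 2, and those of Lss, Cyp51 and Insig1 1 each. The G and C content of the 5 windows ran from 52.3% in Idi1 to 71.7% in Insig1, against a median of 52.7% over all windows, and a match describes the letters, not a bound site.

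All signals below are log2 values relative to the 75th percentile of their array, so a difference of 1 is a 2-fold difference. They are compared between arrays for a probe, never between probes. Each array had 62.9% to 71.0% of its probes well above background, the flag that the scanner software sets for a spot clearly brighter than its surroundings, and 0 saturated spots. Slide 1 held array 1 of the wild-type sham group and array 2 of the wild-type injured group, slide 2 held the remaining 4, and slide and scan coincide. Each wild-type group thus has 1 array per slide, and its spread and a slide effect cannot be told apart. The brighter Adgrg3 probe read 0.02 to 1.18 on the wild-type arrays and -5.38 and -5.76 on the Gpr97-deficient arrays. Wild-type injured array 1, labelled male, had 0 of 4 Y-linked genes above background and Xist at 4.05, while elsewhere Xist read -5.45 or less. Wild-type results for the 8 genes and for the pathway lists are also given without it.

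Of the 18 probes, 17 were well above background on all 6 arrays, and each of the 8 genes had at least 1 such probe. The exception was the second Fdft1 probe, above background on 3 arrays. For each gene the probe with the highest mean signal was used.

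Hmgcs1, the cytosolic enzyme that makes HMG-CoA, the precursor of mevalonate, stood at 5.69 and 5.43 on wild-type sham arrays 1 and 2 and at 5.22 and 4.42 on wild-type injured arrays 1 and 2. It was 5.58 and 4.61 on the sham and injured arrays of Gpr97-deficient mice. On this probe the 3 sham arrays were high and close together, and each injured array lay below them. Wild-type injured array 2 was the lowest of all. On both other Hmgcs1 probes the Gpr97-deficient sham array (-1.44 and -2.35) lay below wild-type injured array 1 (-1.29 and -2.19). The Gpr97-deficient injured array was the lowest there, at -2.04 and -3.1, on the first of them nearly level with wild-type injured array 2 (-2.03). In mm9 the probe used for Hmgcs1 maps to sequence assigned to chromosome 13 without a fixed position.

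Idi1, the isomerase that makes dimethylallyl diphosphate from isopentenyl diphosphate, read 2.86 and 3.52 on the wild-type sham arrays, 2.08 and 1.86 on the wild-type injured arrays, 2.48 and 0.71 on the sham and injured arrays of Gpr97-deficient mice. Again all 3 sham arrays lay above all 3 injured arrays, with the Gpr97-deficient array the lowest of its surgery each time. Its second probe, the intron-spanning one printed above, read -1.16 and -0.76, then -1.71 and -2.03, then -1.48 and -2.74, in the same order of groups and arrays.

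Fdps, the farnesyl diphosphate synthase at the branch between sterols and other isoprenoids, showed another pattern. It was 0.70 and -0.14 on the wild-type sham arrays and 0.52 and 0.18 on the wild-type injured arrays, so those groups overlapped. On the Gpr97-deficient arrays it was 0.98 after sham surgery, the highest of the 6, and -0.46 after injury, the lowest. A second Fdps probe, designed on a cDNA clone, fell by 0.28 in the Gpr97-deficient pair, against 1.44 for the intron-spanning probe.

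Fdft1, squalene synthase, the first enzyme committed to sterols, followed Fdps rather than Idi1. Its values were 0.73 and -0.07 on the wild-type sham arrays, 0.97 and 0.07 on the wild-type injured arrays, 0.61 and -0.28 on the sham and injured arrays of Gpr97-deficient mice. The wild-type groups overlapped, and only the Gpr97-deficient injured array lay below all others.

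Sqle, squalene epoxidase, a rate-limiting oxygen-dependent step, varied least within groups (pooled SD 0.17). It stood at 3.04 and 2.71 on the wild-type sham arrays, 2.87 and 2.74 on the wild-type injured arrays, 2.82 and 2.27 on the sham and injured arrays of Gpr97-deficient mice. The Gpr97-deficient injured array lay below the other 5. Sqle has 1 probe.

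Lss, the cyclase that closes squalene epoxide into lanosterol, read -0.82 and -1.58 on the wild-type sham arrays, -1.58 and -2.40 on the wild-type injured arrays, -0.88 and -2.09 on the sham and injured arrays of Gpr97-deficient mice. Wild-type injured array 2 was the lowest and the Gpr97-deficient injured array next. The probe used lies on an Ensembl transcript, and on both RefSeq probes of Lss the Gpr97-deficient injured array was the lowest, at -2.27 and -3.36.

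Cyp51, the cytochrome P450 that removes the 14-alpha methyl group of lanosterol, had the clearest separation by surgery. It was 1.03 and 1.10 on the wild-type sham arrays and -0.25 and -1.18 on the wild-type injured arrays, and 0.24 and -1.72 on the Gpr97-deficient sham and injured arrays. The 3 injured arrays were the 3 lowest. The other 2 Cyp51 probes gave the same order of sham above injured arrays.

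Insig1 varied most within groups (pooled SD 1.04). Its signal was -0.60 and -1.66 on the wild-type sham arrays, -0.76 and -2.55 on the wild-type injured arrays, -1.06 and -3.34 on the sham and injured arrays of Gpr97-deficient mice. The wild-type injured array that had Xist was as high as a sham array, and the wild-type groups overlapped. The gap between the wild-type injured arrays was 1.79, against a median of 0.42 over all genes. The intron-spanning second probe of Insig1 tracked the first across the arrays (r = 0.994 over 6 arrays of the same samples).

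**Figure D1:**
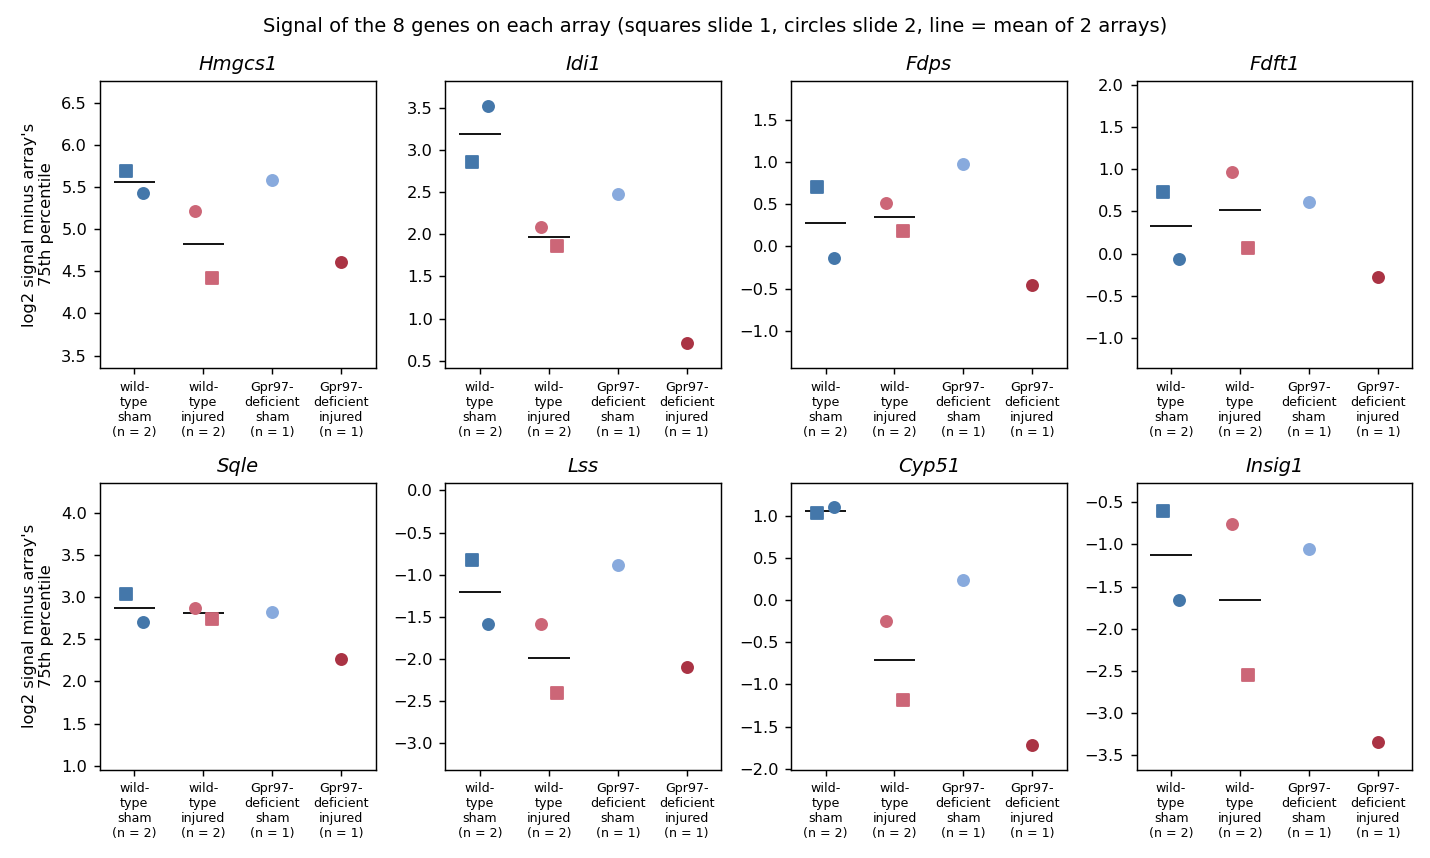
Signal of each of the 8 genes on the 6 arrays (log2, relative to the array's 75th percentile; every panel spans 3.4 log2 units, and lines are means of 2 arrays). Squares are slide 1 and circles slide 2; Cyp51 and Idi1 are lower on all 3 injured arrays, while Fdps, Fdft1, Sqle and Insig1 overlap between the wild-type groups and are lowest on the Gpr97-deficient injured array.

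In wild-type mice, setting injured against sham kidneys asks whether injury changed these genes where the receptor is present. Limma called 0 of 19611 genes (0%) at a Benjamini-Hochberg adjusted p under 0.05, and 0 of the 8. An unadjusted p under 0.05 was reached by 1256 genes (6.4%), 3.17% of all being lower after injury, and by 2 of the 8, both lower. Cyp51 was 1.06 ± 0.04 (SD, n = 2) after sham surgery and -0.71 ± 0.65 (SD, n = 2) after injury, a difference of -1.78 (limma SE 0.39, unadjusted p 0.01, adjusted p 0.768). Idi1 was 3.19 ± 0.47 and 1.97 ± 0.16 (SD, n = 2 each), a difference of -1.22 (limma SE 0.33, unadjusted p 0.0199, adjusted p 0.768). Neither passed the threshold, and both were lower in each within-slide pair, Cyp51 by -2.21 on slide 1 and -1.35 on slide 2 and Idi1 by -1.0 and -1.44.

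The remaining genes gave smaller or opposite differences in wild type. Hmgcs1 differed by -0.74 (SE 0.37) and Lss by -0.78 (SE 0.45). On both RefSeq probes of Lss the wild-type difference was smaller, at -0.07 and -0.15. Insig1 differed by -0.53 (SE 0.76), with -1.96 on slide 1 and 0.90 on slide 2. Sqle was at -0.07 (SE 0.26), Fdps at 0.07 (SE 0.39) and Fdft1 at 0.19 (SE 0.47). The adjusted p of these 6 genes in limma lay between 0.806 and 0.993. Without wild-type injured array 1 the differences were -2.24 for Cyp51, -1.42 for Insig1, -1.33 for Idi1, -1.20 for Lss and -1.14 for Hmgcs1. Those of Fdft1, Sqle and Fdps were -0.26, -0.13 and -0.10, all 8 then being below 0. On slide 2, where the injured array is the one with Xist, Fdps was 0.67 and Fdft1 1.04 higher after injury, and on slide 1 they were at -0.52 and -0.66.

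As a list, 6 of the 8 genes were lower after injury in wild type, against 55.5% of all genes, and 2 were at least 2-fold lower, against 4.76%. Both injured arrays lay below both sham arrays for 3 of 8 (Hmgcs1, Idi1 and Cyp51), against 21.4% of all genes, and above both for 0 of 8, against 16.2%. The same 3 were lower on both slides, against 34.6% of all genes. The median difference of the 8 was -0.64, and that of all genes -0.05. It was -1.17 without wild-type injured array 1, with 8 of 8 lower, and -0.17 without wild-type injured array 2, with 5 of 8 lower. Within slides the median was -1.14 on slide 1 and 0.08 on slide 2, so the direction of the list differed between the slides. With normexp background correction, which set the median of all genes at 0.28, the list stood at -0.13, with 4 of 8 below 0 and 7 of 8 below that median (6 of 8 without normexp).

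The injured and the sham array of Gpr97-deficient mice, both on slide 2, form the comparison on which the genes were picked. It has 1 array a group and no replicate. All 8 genes were lower on the injured array, where 56.2% of all genes were lower, and 5 of 8 were at least 2-fold lower, where 5.37% of all genes were; nothing is read from these counts, since the choice of genes used them. Insig1 differed by -2.29, Cyp51 by -1.96, Idi1 by -1.76, Fdps by -1.44 and Lss by -1.21. Hmgcs1 at -0.97, just short of 2-fold, Fdft1 at -0.89 and Sqle at -0.56 made up the rest. The median was -1.32, against -0.06 for all genes. Of the 17 probes above background on every array, 17 were lower on the injured array and 10 at least 2-fold lower.

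**Figure D2:**
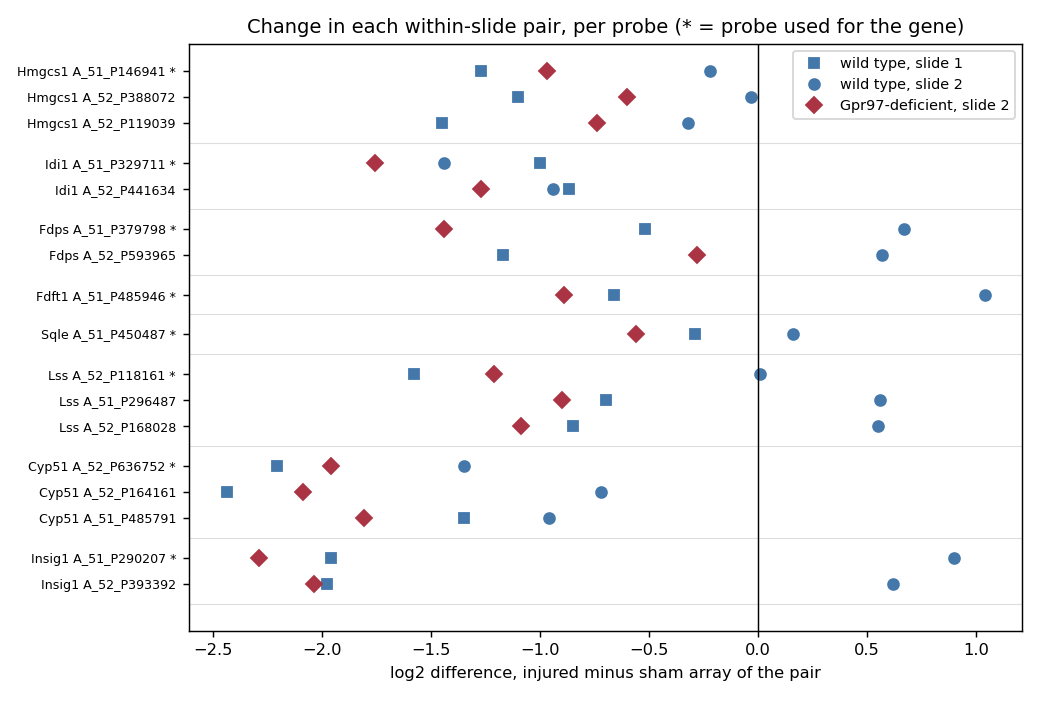
Difference between the injured and the sham array of each within-slide pair (log2, horizontal axis) for the 17 probes above background on all arrays; squares are the wild-type pair of slide 1, circles the wild-type pair of slide 2 and diamonds the Gpr97-deficient pair. Diamonds lie below 0 for every probe, while the circles of Fdps, Fdft1, Sqle, Lss and Insig1 lie at or above 0.

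The change in the Gpr97-deficient pair was more negative than the wild-type change for each of the 8 genes, by -0.18 for Cyp51, -0.22 for Hmgcs1, -0.42 for Lss, -0.49 for Sqle, -0.54 for Idi1, -1.08 for Fdft1, -1.51 for Fdps and -1.76 for Insig1. The gap was smallest for Cyp51 and Hmgcs1 and largest for Insig1. The same sign was seen in 50.9% of all genes. Without wild-type injured array 1 it held for 6 of 8, against 48.9%, since the wild-type changes of Cyp51 (-2.24) and Hmgcs1 (-1.14) were then the larger ones and those of Lss nearly equal. A difference between genotypes in the response was not tested for these genes. Injured lay below sham in all 3 within-slide pairs for 3 of 8, against 26.5% of all genes. Nothing is read from the counts in this paragraph, since the genes were chosen for a lower signal after injury in the Gpr97-deficient pair. That choice by itself favours a more negative change there than in wild type.

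After sham surgery, the Gpr97-deficient array gave no common direction against wild type. It lay between the wild-type sham arrays for 5 of 8 genes, where 37.1% of all genes did. It was lower than the wild-type mean for 3 of 8, against 51.1%. The count was 7 of 8 (median -0.16) without wild-type sham array 2 and 2 of 8 (median 0.38) without wild-type sham array 1, the latter being the comparison within slide 2. Idi1 and Cyp51 lay below both wild-type sham arrays (2 of 8, against 32.8%), by -0.72 and -0.83 against their mean, and Fdps lay above both, by 0.70. The second Fdps probe went the other way and lay below both, by -0.63. Hmgcs1 (0.02), Insig1 (0.07), Sqle (-0.05), Fdft1 (0.28) and Lss (0.32) differed less. On both other probes of Hmgcs1 the difference was -0.34 and -0.82. At least 2-fold lower were 0 of 8, against 4.5% of all genes, and at least 2-fold higher 0 of 8, against 2.99%, and the median was 0.05, against -0.01.

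After injury, the Gpr97-deficient array was lower than the wild-type mean for 8 of 8 genes, against 51.9% of all genes, and below both wild-type arrays for 6 of 8, against 28.2%. Insig1 differed by -1.69, Idi1 by -1.26 and Cyp51 by -1.01, the 3 at least 2-fold lower (4.51% of all genes). Fdps (-0.81), Fdft1 (-0.80) and Sqle (-0.54) came next, and Hmgcs1 (-0.21) and Lss (-0.10) were not below wild-type injured array 2. The RefSeq probes of Lss differed by -0.78 and -0.81, and the Hmgcs1 probes not used by -0.38 and -0.69. On these probes the Gpr97-deficient injured array lay below both wild-type injured arrays, on the first of the Hmgcs1 probes barely so (-2.04 against -2.03). The median of the 8 genes was -0.80, and -0.51 with 6 of 8 lower without wild-type injured array 1. Within slide 2, where that array, the one with Xist, is the only wild-type injured array, the median was -1.11. The Gpr97-deficient injured array was the lowest of the 6 for 6 of the 8 genes, against 15% of all genes, and for 15 of the 17 probes. Nothing is read from these counts, since the choice of genes used this array.

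The other 14 enzymes of cholesterol synthesis were set beside these genes; part of them also entered the earlier result, so they are no independent sample. Of all genes, 56.2% were lower in the Gpr97-deficient pair and 5.37% at least 2-fold lower, and in wild type 55.5% and 4.76%. In the Gpr97-deficient pair 13 of 14 were lower and 5 at least 2-fold lower, with a median of -0.77. In wild type 12 of 14 were lower, 0 at least 2-fold, with a median of -0.36 (-0.75 on slide 1 and -0.01 on slide 2; with wild-type injured array 1 left out, -0.72 and 2 at least 2-fold lower), and 0 passed limma. Msmo1, a sterol C4-methyl oxidase, read 3.70 and 2.57 on the wild-type sham arrays, 3.44 and 3.24 on the wild-type injured arrays, and 3.37 and 1.87 on the Gpr97-deficient sham and injured arrays. Nsdhl, a C4-demethylation dehydrogenase, went from 1.68 to 0.33 in the Gpr97-deficient pair. Both genes were at their lowest on the Gpr97-deficient injured array.

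Acat2, the cytosolic thiolase at the entry of the route, went the other way, from 1.30 and 1.19 to 2.46 and 2.66 in wild type (1.31 higher, limma SE 0.24, adjusted p 0.768; 1.41 without wild-type injured array 1) and from 0.99 to 2.61 in the Gpr97-deficient pair. Its related gene Acat3 could share signal with that probe, which was not tested.

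**Figure D3:**
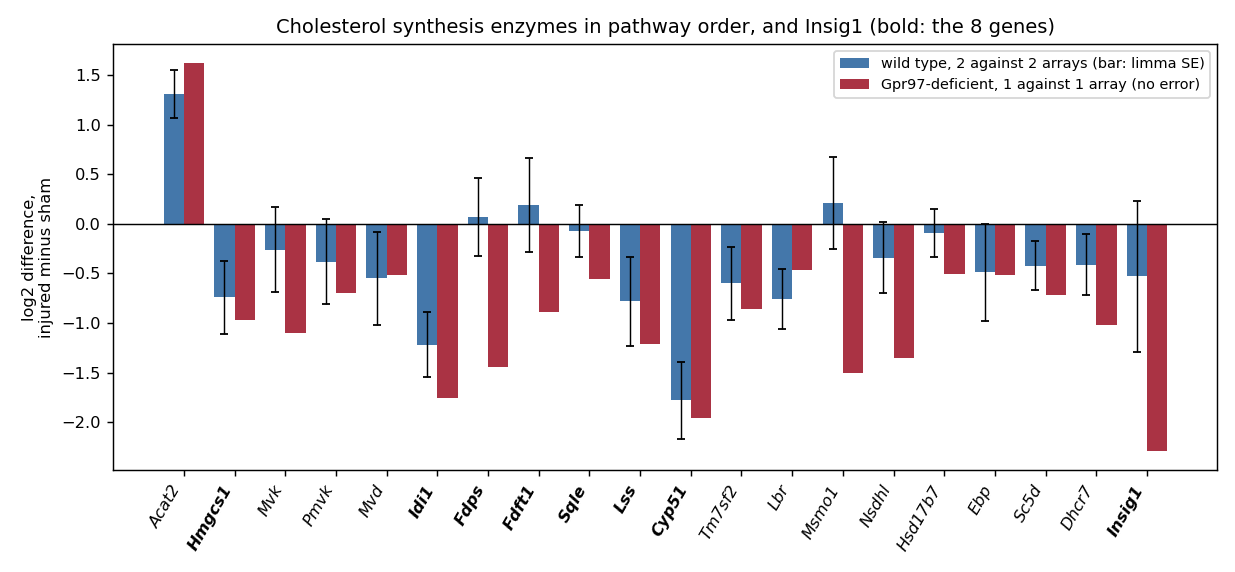
Difference between injured and sham arrays (log2) for enzymes of cholesterol synthesis, listed about in pathway order, and for Insig1; blue is wild type (2 against 2 arrays, error bars are limma SE) and red the Gpr97-deficient pair (1 against 1, no error). Acat2 is above 0 in both genotypes, and each of the other red bars is below 0.

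Of 14 genes of SREBP processing and sterol sensing, 11 were lower in the Gpr97-deficient pair, against 56.2% of all genes. At least 2-fold lower was 1, against 5.37%, and the median was -0.13. In wild type 13 were lower, against 55.5%, with a median of -0.31 (-0.28 without wild-type injured array 1). Srebf2, the gene of SREBP2, stood at 3.41 and 3.94 on the wild-type sham arrays, 3.81 and 3.25 on the wild-type injured arrays, and 4.20 and 3.22 on the Gpr97-deficient sham and injured arrays. Srebf1, whose products act mainly on fatty acid genes, stood at 3.81 and 3.04, 3.41 and 2.73, and 4.0 and 2.92 in that order. For both genes the Gpr97-deficient sham array was the highest of the 6. Scap ran from 3.92 to 4.35 over all arrays and Insig2, the second Insig gene, from 1.76 to 2.25. Mbtps2, the site-2 protease of SREBP, differed by -0.71 in the Gpr97-deficient pair. Syvn1 and Mbtps1 differed by 0.26 and -0.20.

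Among 8 genes of sterol uptake and transfer, 7 were lower in the Gpr97-deficient pair and 3 at least 2-fold, with a median of -0.36. The median of these 8 in wild type was -0.16 (-0.33 without wild-type injured array 1). Stard4, a sterol transfer protein, differed by -1.16 in the Gpr97-deficient pair, Npc1 by 0.49, Nsg1 by -0.44 and Mylip by -0.27.

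Of 13 SREBP1 targets of fatty acid synthesis 9 were lower in the Gpr97-deficient pair, against 56.2% of all genes, with a median of -0.55. In wild type 10 were lower, against 55.5%, with a median of -0.33 (-0.47 without wild-type injured array 1). Neither count is far above the share of all genes. The largest differences in the Gpr97-deficient pair were those of the desaturases Fads1 (-1.0), Scd1 (-0.99), Fads2 (-0.84) and Scd2 (-0.83). Fasn, fatty acid synthase, ranged from 3.52 on the Gpr97-deficient injured array to 4.31 on wild-type sham array 1. The isoprenoid branch, 11 genes, had a median of -0.17 in the Gpr97-deficient pair and -0.01 in wild type (0.16 without wild-type injured array 1). Of its genes 0 were 2-fold lower in either, against 5.37% and 4.76% of all genes. In the Gpr97-deficient pair Fntb, a farnesyltransferase subunit, was 0.73 and Dhdds and Coq2 were -0.39 and -0.33. Pdss2 was above background on neither array of that pair. The 13 measured LXR target and efflux genes had medians of 0.16 in the Gpr97-deficient pair and 0.02 in wild type (-0.63 without wild-type injured array 1).

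Marker lists were read on the same arrays, because in whole tissue fewer cells of a type and less RNA per cell cannot be told apart. Relative to the wild-type sham mean, the median of the 8 genes was 0.27 and -0.27 on wild-type sham arrays 1 and 2, -0.17 and -1.17 on wild-type injured arrays 1 and 2, 0.05 and -0.92 on the sham and injured arrays of Gpr97-deficient mice. The 14 proximal tubule markers stood at -0.15, 0.15, -0.68, -1.63, -0.11 and -1.19 in the same order, so that the same 2 arrays were lowest. Their summed signal, in units of the array's 75th percentile, was 1590 to 2150 after sham surgery and 789 to 1160 after injury in wild type, and 1740 and 1050 in the Gpr97-deficient pair. The same 2 arrays also had the lowest medians for the thick ascending limb and distal tubule, hepatocyte, T and NK cell and B cell lists. For the collecting duct and podocyte lists, among others, they did not. The part of tubule cell content in the values of the sterol genes was not tested.

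The 15 cell cycle genes moved with the Gpr97-deficient pair too. Their median was 2.41 after sham surgery and -0.84 after injury, with summed signals of 21.8 and 7.93, against 7.32 to 10.4 on the wild-type arrays. The 5 red blood cell markers had summed signals of 141 and 37.8 in that pair, 8.41 and 9.97 on the wild-type sham arrays and 71.4 and 4.29 on the wild-type injured arrays. The 8 neutrophil markers summed to 58.1 and 27.1 in the Gpr97-deficient pair, to 3.6 and 2.49 on the wild-type sham arrays and to 29.4 and 12.1 on the wild-type injured arrays. On the Gpr97-deficient sham array 5 of the 8 sterol genes lay between the wild-type sham arrays, where 37.1% of all genes did. The part of these marker lists in the values of the sterol genes was not tested.

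The adrenal gland, which lies next to the kidney, and fat are rich in sterol and lipid enzymes. Of the adrenal cortex markers Cyp11a1 and Cyp11b2 were above background on 0 of 6 arrays. The 7 measured ones had summed signals of 27.8 and 28.0 on the wild-type sham arrays, 21.5 on each wild-type injured array, and 22.6 and 19.6 in the Gpr97-deficient pair. Most of that sum is Fdx1, which many tissues express, at 4.71, 4.74, 4.30 and 4.36 on the wild-type and 4.38 and 4.19 on the Gpr97-deficient arrays. Star, Nr5a1 and Akr1b7 differed by 0.70, 0.01 and 0.07 between injured and sham wild type and by 0.09, 0.18 and -0.53 in the Gpr97-deficient pair. Hsd3b1 was lower in both, by -1.22 in wild type and -0.96 in the Gpr97-deficient pair. Mc2r differed by -0.36 and 0.4 in that order, and Cyp21a1, above background on 4 arrays, by 0.15 and -0.47. Of the fat markers Lep was above background on 0 arrays, Adipoq on wild-type sham array 1 alone and Plin1 on the Gpr97-deficient injured array alone. The 5 measured fat markers summed to 32.5 on the Gpr97-deficient injured array, against 12.7 to 13.8 on the other 5. Most of that sum is Fabp4, at 4.94 there and 3.59 to 3.70 elsewhere. Cidec was 3.15 higher after injury in wild type and 4.0 higher in the Gpr97-deficient pair, while Retn, Cidea and Cfd were highest on a wild-type sham array.

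**Figure D4:**
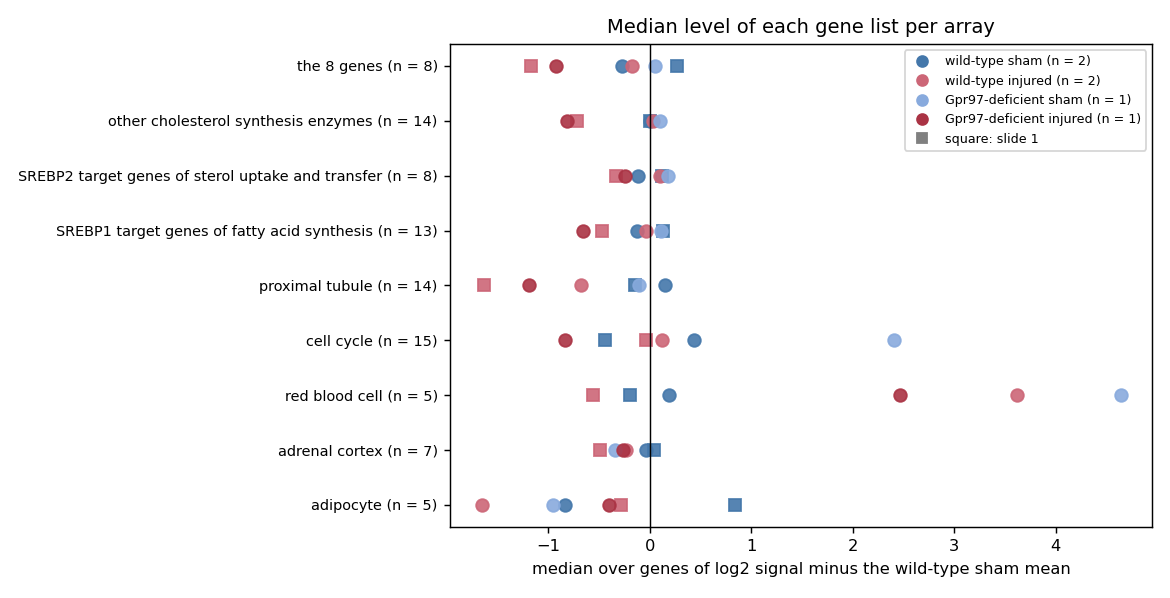
Median over the genes of each list of the log2 signal minus the wild-type sham mean (horizontal axis), 1 point per array; squares are slide 1, circles slide 2. For the 8 genes, the other sterol and fatty acid lists shown and the proximal tubule markers, wild-type injured array 2 and the Gpr97-deficient injured array are the lowest points. The cell cycle and red blood cell lists are highest on the Gpr97-deficient sham array.

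Over the 6 arrays, the 28 pairs among the 8 genes correlated with r between 0.303 (Idi1 and Fdft1) and 0.953 (Hmgcs1 and Lss). Cyp51 and Idi1 (0.948) and Fdps and Fdft1 (0.865) were closer to each other than across these pairs (0.303 to 0.474). The mean profile of the 8 genes was 0.65 and 0.23 on the wild-type sham arrays, 0.20 and -0.54 on the wild-type injured arrays, 0.42 and -0.97 on the sham and injured arrays of Gpr97-deficient mice. Among the genes of the pathway lists, the highest r were those of Dhcr7, the last reductase of the route (0.985), Nsdhl (0.975), Fasn (0.949) and Stard4 (0.922). They were picked by that value, and the lists did not follow as a whole. Ebp, for example, was at 0.58, Elovl6 at 0.202, Acat2 at -0.79 and Npc1 at -0.75. Scarb1, of the efflux list, was the lowest at -0.896. Of 15831 genes above background on all arrays, 271 genes other than the 8 (1.71%) had r above 0.9.

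Of 12161 named genes outside the lists, the 10 most like the mean profile were Znfx1 (r = 0.997), Mterf2 (0.992), Tspyl4 (0.991), Cit, Rnaset2b and Mrps11 (0.987 each), Mrps36 and Ndufv2 (0.983 each), Cyp1a1 (0.982) and Pla2g5 (0.975). Cit, the citron kinase of cell division, differed by -2.42 in the Gpr97-deficient pair and Znfx1 by -0.19, so a like profile does not mean a like size. The 5 most opposite were Tnip1 (-0.987), Mcam (-0.986), Tacc2 and Ppp1r18 (-0.984 each) and Rab3gap2 (-0.983). The points share their libraries and slides, and no p is given. Of these 10 genes, 3 (Mterf2, Tspyl4 and Cit) reached the highest possible Spearman's rho of 1, a value that can be tied over 6 arrays.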

How the data were processed

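Kidney RNA was hybridised to single-colour (Cy3) Agilent arrays, per the labels. The deposited scanner files give intensity values per spot, extracted with Feature Extraction 10.7.1.1 (slide 1) and 10.7.3.1 (slide 2), per the file headers, with positions in mm9. Their well above background, saturation and outlier columns, as deposited, are flags of other kind than intensity. The authors' deposited value table was read as log2 values (medians 6.07 to 6.09; slope 0.936 to 1.07 on the log2 scanner signal); its normalization is unknown, and limma, with no version, is listed in the submitters' processing notes.

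The log2 processed signal minus the array's 75th percentile was used. Control spots (43379 of 45018 remained) and outlier spots left, and spots of a probe were averaged. Probes were named by RefSeq accession (27668), symbol or synonym (6060) or the file (7446). A gene took its brightest probe, tested if above background on at least 2 arrays. Limma 3.58.1 in R 4.3.3 fitted group means over the 6 arrays (2 residual degrees of freedom, 2-sided, adjusted over all genes), and the fit was tested on simulated data. The members and lists were chosen with earlier results of these data known. Named genes were the 8 genes, key regulators (among them Srebf1, Srebf2, Scap and Insig2), up to 4 others of each list with the largest change in the Gpr97-deficient pair, and the closest profiles; a few more were named after their values were seen (Fasn, Dhcr7). Some genes that the rule names count in their lists but are not reported here. Motifs and figures used Python 3.11.15.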

Additional observations from a re-analysis of the deposited data

How the results depend on the processing

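The count of genes called in wild type was 0 under every alternative run, among them a variance trend with a robust prior, the wild-type arrays alone and slide as a block. The median of the 8 genes in wild type, -0.64, was -0.13 with normexp, -1.14 within slide 1 and 0.08 within slide 2, and -1.17 to -0.17 when each wild-type array was left out. Cyp51, Idi1 and Hmgcs1 kept their direction in wild type in 13 of 13 alternatives. With normexp, which moved the median of all genes to 0.28, Insig1 stood at 0.31 and Lss at 0.01, and Fdps to -0.11 with the mean of its probes. Leaving out single arrays turned Fdps (-0.35 to 0.50), Fdft1 (-0.26 to 0.64), Sqle (-0.23 to 0.09) and Insig1 (-1.42 to 0.37). Between genotypes after injury, Hmgcs1 reached 0.19, Lss 0.31 and Fdft1 0.03 under an alternative. In the Gpr97-deficient pair, Fdps was -0.86 with the mean of its probes, and between genotypes after sham surgery it was then 0.03. The closest 10 profiles shared 3 genes with those after slide means were subtracted, and 0 with the first 10 by Spearman's rho, which says little since 3 of them have the highest possible rho and ties set that order. The sterol element was found in 0 member promoters in full, in 1 as the core and in 1 with at most 1 mismatch. No paired analysis was possible because the labels give the groups no shared replicate numbers; slide, which pairs the wild-type arrays, was used as a block and within slides as given above. The causes were not tested. With 2 arrays a group the precision is limited by their number.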

Other observations

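Enzymes that turn cholesterol into oxysterols were measured on the same arrays. Ch25h, which makes 25-hydroxycholesterol, a sterol that acts on the Insig and SCAP system, read -0.87 and -1.30 on the wild-type sham arrays, -0.05 and 1.57 on the wild-type injured arrays, -0.56 and 0.80 on the sham and injured arrays of Gpr97-deficient mice. All 3 injured arrays lay above all 3 sham arrays; the wild-type difference was 1.84 (limma SE 0.62, adjusted p 0.768) and that of the Gpr97-deficient pair 1.35. Without wild-type injured array 1 the wild-type difference was 2.65. Cyp27a1, another enzyme that makes an oxysterol, went the other way. It read -0.52 and -1.14 on the wild-type sham arrays and -1.89 and -2.03 on the wild-type injured arrays. Its difference was -1.13 in wild type (limma SE 0.32, adjusted p 0.768) and -0.3 in the Gpr97-deficient pair. Cyp7b1, which hydroxylates such oxysterols further, was 3.99 and 5.24 on the wild-type sham arrays, -0.54 and 0.96 on the wild-type injured arrays, and 1.66 and 2.59 in the Gpr97-deficient pair. It was -4.40 in wild type (limma SE 0.72, adjusted p 0.768), -3.65 without wild-type injured array 1 and 0.93 in the Gpr97-deficient pair, and its lowest value was on the array with Xist. Abcg5 and Lcat were near background, above it on 3 and 2 of the 6 arrays.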
